A study of Mus musculus with 53 samples.

Results

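The libraries described here compare an antibody against CD8 with an isotype control antibody in mouse mammary tumours that carry whole genome doubling (WGD+). They are 6 of the 53 bulk RNA libraries of a study of how whole genome doubling shapes breast tumour evolution, and were taken by their titles: 3 libraries of WGD+ tumours under anti-CD8 and 3 of WGD+ tumours under isotype antibody. All 6 tumours grew from the WGD+ form of TA3 Hauschka, a mouse mammary tumour line, placed orthotopically, with Matrigel, in an inguinal mammary gland of A/J females aged 6 weeks, which have an intact immune system, and were treated for 14 days. The sources used here do not give the antibody clone, dose and schedule, or whether the WGD+ form is a single clone. The nearest comparison is the same pair of antibodies in tumours of the WGD- form, with 2 libraries under anti-CD8 and 3 under isotype. The labels do not say that libraries come from separate mice, so p-values measure only the spread between these libraries.

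CD8 is the co-receptor of cytotoxic T cells, which recognise peptides on MHC class I and kill the presenting cell with perforin and granzymes. Activated T cells also release interferon-gamma, which raises chemokines, guanylate-binding proteins and the antigen presentation machinery in tumour and myeloid cells. An antibody against CD8 is used to remove these T cells, and an isotype antibody has the same constant region without the target. In bulk tumour RNA, fewer cells of a type and less RNA per cell cannot be told apart.

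Levels are given as deposited, as log2(CPM + 1), where CPM is a gene's read count scaled to the depth of its library, and a change is the mean of the anti-CD8 libraries minus the mean of the isotype libraries on that scale. Depth was 11.5, 12.1 and 14.2 M (mega) assigned reads in the anti-CD8 libraries and 14.3, 9.57 and 10.5 M in the isotype libraries. A single read is worth 0.0692 to 0.107 CPM, so a count of 3 reads corresponds to a level of 0.27 to 0.40. For all 13 epithelium and keratin genes tested the groups overlapped, with a median change of 0.09, or -0.05 without isotype 2. Krt8 lay at 9.24, 9.10 and 9.02 under anti-CD8 and 9.29, 8.96 and 8.83 under isotype. Epcam lay at 7.88 to 8.08 under anti-CD8 and 7.32 to 8.12 under isotype. Of the 15 epithelium and keratin genes listed, Cldn3 had 0 reads in anti-CD8 1 and 2. Cldn7 had 0 reads in anti-CD8 1 and in isotype 1, 2 and 3.

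The library labelled WGD+ isotype 2 stood apart in its expression of genes that differ between the WGD+ and WGD- forms. A score of 42 genes higher and 121 lower in WGD+ than in WGD- tumours of another experiment of the series, grown in immunodeficient hosts, gave 0.42 to 0.77 in the anti-CD8 libraries, 0.65 and 0.72 in isotype 1 and 3, and -0.07 in isotype 2, while the 8 WGD- libraries lay between -1.38 and -0.69. Isotype 2 lay 0.08 above the midpoint between the medians of the WGD+ and WGD- libraries, so it scored on the WGD+ side. Over 13840 genes its closest library was WGD- anti-CD8 2, with Pearson's r of 0.979, a description over genes of a shared table. The cystine transporter Slc7a11 was at 4.81 in isotype 2, against 6.34 to 7.19 in the other WGD+ libraries and 3.48 to 4.73 in the WGD- libraries. Lpar3, a receptor for lysophosphatidic acid, was at 3.22 in isotype 2, against 0.78 to 1.22 in the other WGD+ libraries and 3.18 to 4.57 in the WGD- libraries. Changes, counts and medians are therefore mostly given both with all 3 isotype libraries and with isotype 1 and 3 alone.

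**Figure D1:**
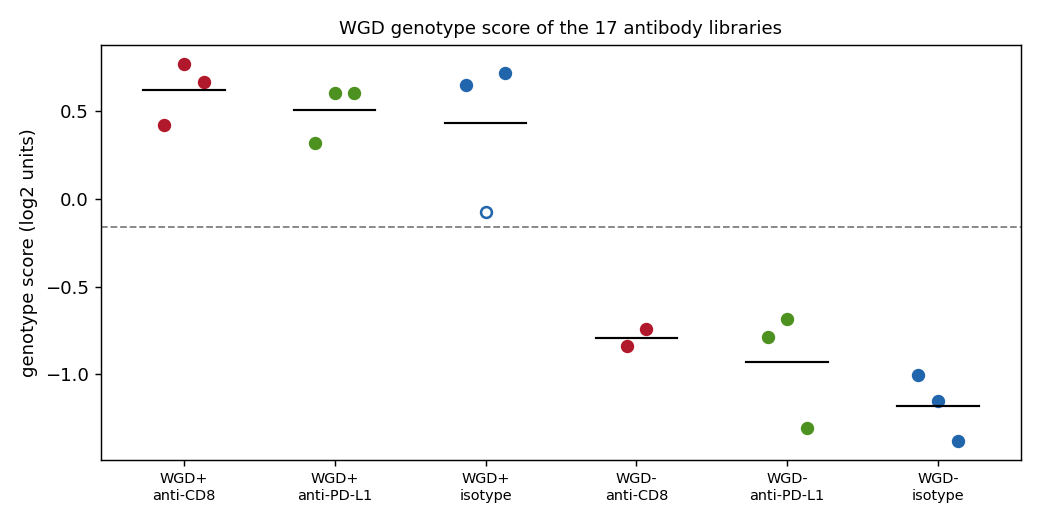
Genotype score (mean level of genes higher in WGD+ minus mean level of genes lower in WGD+, in log2 units) of the 17 antibody libraries by group. Each circle is a library, bars are group means, the open circle is WGD+ isotype 2 and the dashed line is the midpoint between the medians of the WGD+ and WGD- libraries. The open circle, at -0.07, lies between the other WGD+ libraries and the WGD- libraries.

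No gene passed the test between anti-CD8 and isotype in WGD+ tumours. With limma across all 17 antibody libraries, 0 of 13840 genes (0%) had a Benjamini-Hochberg adjusted p under 0.05, and the lowest adjusted p was 0.660. At an unadjusted p under 0.05 there were 1041 genes (7.52%), of which 485 were higher under anti-CD8 (3.5%) and 556 lower (4.02%). Without isotype 2, limma again called 0 genes (0%), and 308 genes (2.23%) had an unadjusted p under 0.05, with 113 higher (0.816%) and 195 lower (1.41%). The whole-read model voom also called 0 genes with and without that library. The 3 anti-CD8 libraries lay wholly above the 3 isotype libraries for 814 genes (5.88%) and wholly below for 727 (5.25%). Against isotype 1 and 3 alone they lay above for 1214 genes (8.77%) and below for 1327 (9.59%).

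A fit that weights each library by its fit to its group gave another count. With limma array weights, 1976 of 13840 genes were called, 996 higher and 980 lower. In that fit anti-CD8 3 had a weight of 9.66 against 0.75 and 0.51 for anti-CD8 1 and 2, and isotype 1 a weight of 3.26 against 0.24 and 0.64 for isotype 2 and 3. Its calls therefore rest largely on 1 library of each group, and no gene is described as called on that ground.

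Cd8a, which encodes the alpha chain bound by most CD8 antibodies, was near the detection floor in both groups. It lies on mm10 at chr6:71373427-71379173, plus strand, and was at 0.61, 0.42 and 0.19 under anti-CD8, from 6, 4 and 2 reads, and at 1.10, 0.51 and 0.38 under isotype, from 16, 4 and 3 reads. The highest value was isotype 1, and the groups overlapped. Its change was -0.26 with a 95% interval of -1.91 to 1.39 (limma adjusted p = 0.949), and -0.33 without isotype 2. Cd8b1, the beta chain, was at 0.24, 0.33 and 0.10 under anti-CD8 and at 0.95, 0.15 and 0.26 under isotype. Here too only isotype 1 stood above the rest, with 13 reads against 1 to 3 in the other 5 libraries.

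The WGD- tumours of the same experiment show what these genes read where T cell transcripts are higher. In WGD- tumours Cd8a was at 0.67 and 0.38 under anti-CD8 and at 1.53, 3.21 and 3.10 under isotype, groups that do not overlap. In WGD+ tumours under anti-PD-L1 it was at 0.75, 2.12 and 3.20. For Cd8a the 3 WGD+ isotype libraries were thus below all 3 WGD- isotype libraries, and isotype 2 and 3 held 4 and 3 reads of it.

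The list of CD8 and T cell receptor complex genes had 15 of 18 members measured, all tested, and none was called. Their median change was -0.20 with all libraries and -0.32 without isotype 2, beside a median over all genes of -0.0055 and -0.0035. The libraries did not overlap for 1 member, lower under anti-CD8, beside 5.25% of all genes, and for 7 members, all lower, against isotype 1 and 3 alone, beside 9.59%. All but Cd247 and Lck lay at 1.44 or less in each of the 6 libraries. Cd3e, a signalling chain of the T cell receptor, was at 0.44, 0.23 and 0.27 under anti-CD8 and at 1.24, 0.15 and 0.85 under isotype. Isotype 2 had the lowest Cd3e of the 6 libraries, and isotype 1 and 3 the highest.

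Some genes named for lymphocytes stood far above Cd3e. Lck, the kinase that starts T cell receptor signalling, was at 3.96, 3.61 and 4.17 under anti-CD8 and at 4.45, 4.81 and 4.02 under isotype. Foxp3, the factor that defines regulatory T cells, was at 5.13, 4.82 and 4.73 under anti-CD8 and at 4.57, 4.11 and 4.91 under isotype. Klrb1c, which encodes the NK cell receptor NK1.1, was at 4.69, 4.90 and 4.66 under anti-CD8 and at 5.05, 5.01 and 4.69 under isotype. In WGD+ vehicle tumours of the immunodeficient host, which lacks mature T, B and NK cells, Lck was at 3.70 to 4.21, Foxp3 at 3.54 to 3.78 and Klrb1c at 4.39 to 4.72, while Cd3e and Cd8a were listed at 0 in all 3 libraries of that separately normalized table. Cd4 was at 1.64, 1.24 and 1.17 under anti-CD8 and at 1.24, 0.97 and 1.14 under isotype, a change of 0.23 (limma adjusted p = 0.945), or 0.16 without isotype 2.

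**Figure D2:**
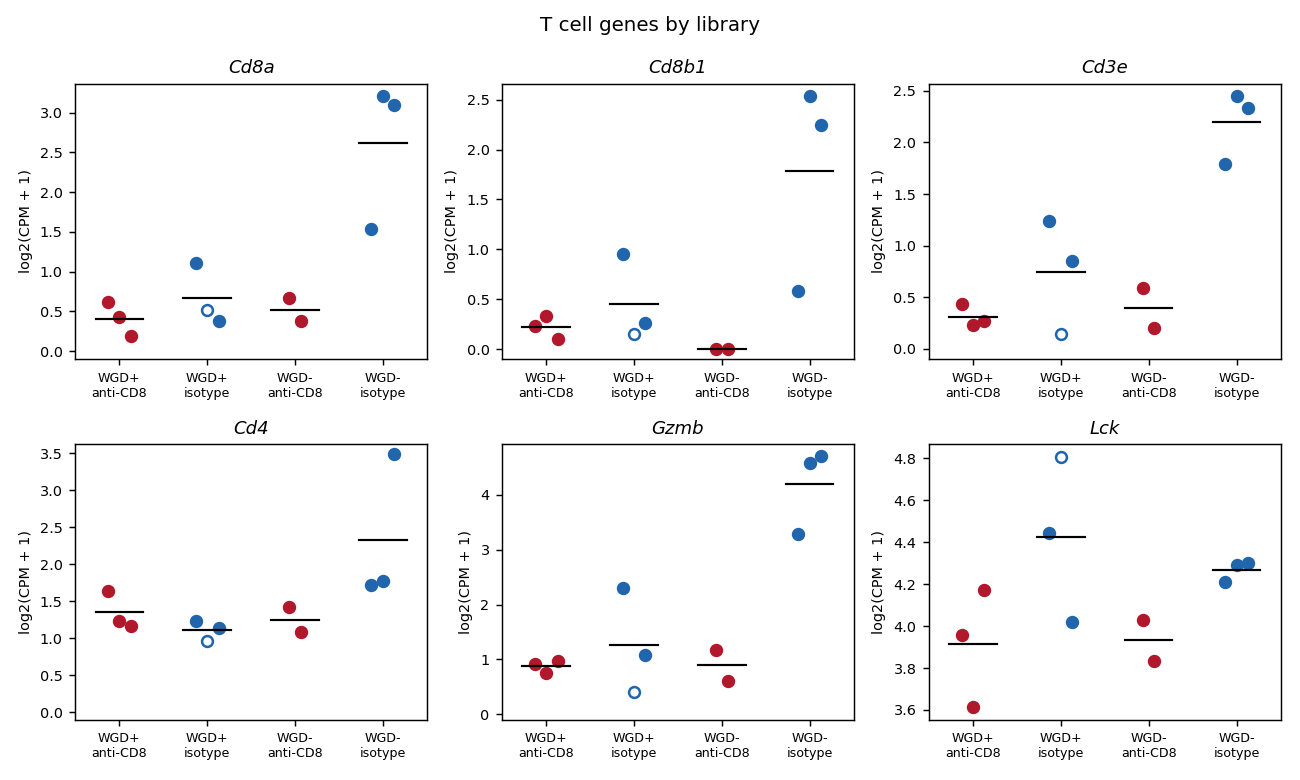
Levels of T cell genes, as log2(CPM + 1), in WGD+ and WGD- tumours under anti-CD8 and isotype antibody. Each circle is a library, bars are group means and the open circle is WGD+ isotype 2. Cd8a, Cd3e and Gzmb are lower in every other library than in the 3 WGD- isotype libraries, and Cd8b1 in every one but WGD+ isotype 1. Lck lies between 3.61 and 4.81 in all 11 libraries.

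Cytotoxic effector genes overlapped between the groups with all 3 isotype libraries. Without isotype 2, 3 of the 13 tested lay wholly below under anti-CD8, beside 9.59% of all genes. Of 15 members 13 were tested, 0 were called, and the median change was -0.21, or -0.34 without isotype 2. Gzmb, a granzyme that triggers death of the target cell, was at 0.91, 0.75 and 0.98 under anti-CD8 and at 2.31, 0.40 and 1.08 under isotype. Prf1, the pore-forming perforin, was at 0.77, 0.23 and 0.10 under anti-CD8 and at 2.17, 0.00 and 0.68 under isotype. For both genes isotype 1 was the highest of the 6 libraries and isotype 2 was the lowest. Ifng, interferon-gamma itself, was at 0.34, 0.00 and 0.00 under anti-CD8 and at 1.37, 0.15 and 0.93 under isotype. The smallest unadjusted p of the list, 0.0278, belonged to Eomes, a T-box factor of effector and memory T cells. Its change was -0.63 (limma adjusted p = 0.660), or -0.49 at an unadjusted p of 0.102 without isotype 2. Eomes was at 2.21, 1.72 and 1.77 under anti-CD8 and at 2.67, 2.80 and 2.11 under isotype. In WGD+ vehicle tumours of the immunodeficient host, in a separately normalized table, it was at 2.19, 2.04 and 2.17.

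The interferon-gamma response genes split the isotype libraries. All 19 members were tested and 18 had a change below 0, with a median of -0.77, yet with 3 isotype libraries the groups overlapped for all 19. Without isotype 2 the median was -1.40 and the anti-CD8 libraries lay wholly below for 18 of 19 members, beside 9.59% of all genes. Neither fit called any member in limma, and the lowest adjusted p with all libraries was 0.763. The mean level of the list was 3.63, 3.32 and 3.36 under anti-CD8 and 5.20, 2.74 and 4.70 under isotype, so isotype 2 was below every anti-CD8 library and isotype 1 and 3 were above them. In WGD+ tumours under anti-PD-L1 it was 3.72, 5.57 and 6.96, so anti-PD-L1 1 was nearly as low as the anti-CD8 libraries.

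Cxcl9, a chemokine that draws activated T cells, was at 3.71, 1.90 and 1.86 under anti-CD8 and at 5.42, 1.12 and 5.03 under isotype. Its change was -1.37 with all libraries and -2.74 without isotype 2 (limma adjusted p = 0.836 and 1.00). Gbp2b, a guanylate-binding protein that acts on vacuoles of intracellular microbes, was at 4.80, 4.54 and 4.36 under anti-CD8 and at 7.28, 3.49 and 6.70 under isotype. It was at 304, 262 and 283 reads under anti-CD8, against 2149, 96 and 1025 under isotype, so depth does not limit it. The change was -1.25 with all libraries and -2.42 without isotype 2, and in a fit of the 5 remaining libraries of this comparison and no others Gbp2b was the 1 gene called (limma adjusted p = 0.0389). That fit was chosen after the data were seen. Gbp2b shares closely related copies with Gbp2 and Gbp3, and how shared reads were counted is not given in the sources used here.

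Igtp, an immunity-related GTPase, was at 4.31, 3.94 and 4.43 under anti-CD8 and at 6.84, 3.62 and 6.00 under isotype. Gbp6 was at 1.22, 1.07 and 1.25 under anti-CD8 and at 3.83, 1.19 and 2.55 under isotype. In both genes isotype 1 was the highest library, isotype 3 the next and isotype 2 within or just below the range of the anti-CD8 libraries.

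The promoters of Gbp2b and Igtp are shown because these 2 members had the smallest p of the list without isotype 2, 0.0581 and 0.0531, and because both hold a letter pattern of interferon-responsive elements. Of the 19 members 11 matched the RefSeq promoter table (GRCm38.p6, the assembly of mm10), which gives 250 bases before and 50 after a start. The interferon-stimulated response element core, GAAA, 2 bases of any kind and GAAA on either strand, was found in 9 of the 11, against 3.44% of the 32851 promoters of the table, and the gamma-activated site, TTC, 3 bases of any kind and GAA, which reads the same on both strands, in 4 of the 11, against 8.30%. A gene counted if any of its promoter entries held a match, and Gbp3 and Irf1 had more than a single entry. The shares of the table are per promoter, a different unit. The 2 patterns do not overlap in these sequences. Capitals mark a match, and the match in Gbp2b is the response element core read on the other strand, while Igtp holds the gamma-activated site followed by the response element core.
Gbp2b, chr3:142594597-142594896, plus strand: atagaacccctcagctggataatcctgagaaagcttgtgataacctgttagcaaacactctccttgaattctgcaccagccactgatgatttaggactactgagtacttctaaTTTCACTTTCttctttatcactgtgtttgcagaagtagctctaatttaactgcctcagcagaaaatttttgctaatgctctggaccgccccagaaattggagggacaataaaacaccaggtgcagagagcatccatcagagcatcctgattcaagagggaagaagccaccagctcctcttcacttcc
Igtp, chr11:58199306-58199605, plus strand: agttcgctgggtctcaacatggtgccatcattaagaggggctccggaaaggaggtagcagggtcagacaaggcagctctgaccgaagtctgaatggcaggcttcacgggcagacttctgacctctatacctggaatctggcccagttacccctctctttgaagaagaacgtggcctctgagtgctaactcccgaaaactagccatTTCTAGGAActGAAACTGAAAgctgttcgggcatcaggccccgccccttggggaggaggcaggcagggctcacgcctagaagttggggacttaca
A match describes these letters only. Cxcl9 had no match to either pattern in its window.

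Antigen presentation genes followed the same split of libraries. Of the 14 MHC class I presentation genes none was called, and the median change was -0.11 with all libraries and -0.69 without isotype 2, when 12 of 14 lay wholly below isotype 1 and 3 beside 9.59% of all genes. H2-K1, a class I heavy chain, was at 10.21, 10.30 and 9.78 under anti-CD8 and at 10.90, 8.12 and 10.49 under isotype. Its change was 0.26 with isotype 2 in the group and -0.60 without, so its direction turns on that library. Nlrc5, an activator of class I genes, was at 3.84, 3.06 and 2.96 under anti-CD8 and at 5.51, 1.70 and 4.27 under isotype. Psmb9, an immunoproteasome subunit that trims peptides for class I, was at 6.12, 5.51 and 5.18 under anti-CD8 and at 7.46, 4.22 and 6.90 under isotype. Of the 8 class II genes tested none was called, and the median change was -0.17, or -1.11 without isotype 2, when 6 of 8 lay wholly below beside the same 9.59%. Ciita, the master activator of class II genes, was at 2.18, 1.34 and 1.12 under anti-CD8 and at 3.52, 0.80 and 2.64 under isotype. Cd74, the invariant chain that guards the class II groove, was at 7.89, 6.64 and 6.67 under anti-CD8 and at 8.45, 4.56 and 7.85 under isotype, with a change of 0.11 or, without isotype 2, -1.08. Isotype 2 was the lowest of the 6 libraries for each of these 5 genes, and for Cd74 the groups overlapped even without it.

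**Figure D3:**
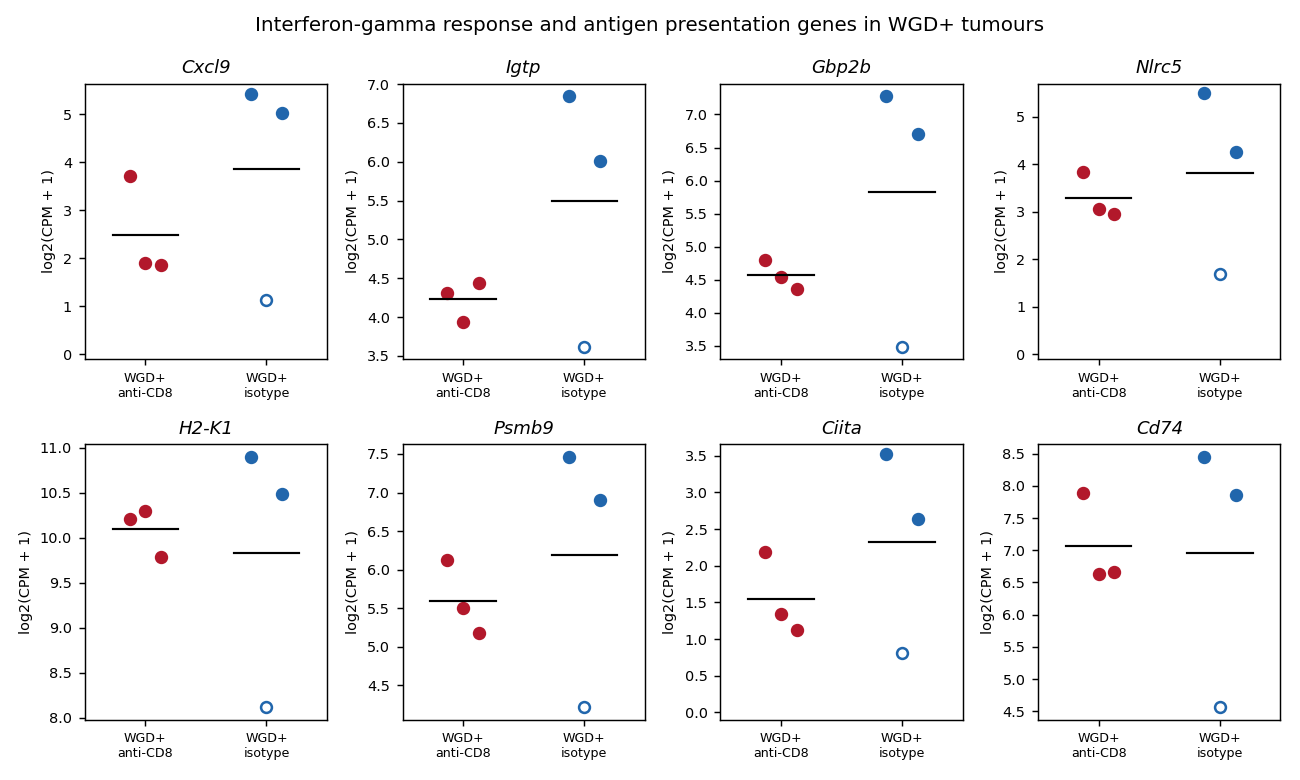
Levels of interferon-gamma response and antigen presentation genes, as log2(CPM + 1), in WGD+ tumours under anti-CD8 and isotype antibody. Each circle is a library, bars are group means and the open circle is isotype 2. The 2 filled isotype circles lie above the anti-CD8 libraries in every panel except Cd74, where isotype 3 lies just under anti-CD8 1, and the open circle is the lowest of the 6 libraries in all 8 panels.

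The type I interferon genes showed little of this pattern. All 23 were tested and none called, with a median change of 0.09, or -0.15 without isotype 2, and 2 of 23 lay wholly below isotype 1 and 3, a share near the 9.59% of all genes. Mx1, an antiviral GTPase, was at 1.60, 2.11 and 2.36 under anti-CD8 and at 2.37, 2.61 and 2.52 under isotype, so the groups did not overlap but nearly touched. Zbp1, a sensor of left-handed nucleic acid, was at 4.40, 4.36 and 4.92 under anti-CD8 and at 5.85, 3.42 and 5.43 under isotype. The checkpoint ligand gene Cd274, which encodes PD-L1, was at 2.62, 2.80 and 2.46 under anti-CD8 and at 4.27, 2.14 and 3.53 under isotype, with a change of -0.69, or -1.28 without isotype 2 (limma adjusted p = 0.833 and 1.00).

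Macrophage genes were the list with the highest median. All 15 were tested, all 15 had a change above 0, and none was called. An unadjusted p under 0.05 was found for 7 of them beside 3.5% of all genes, but for 1 beside 0.816% without isotype 2. The median change was 1.26, or 0.74 without isotype 2, and 8 of 15 lay wholly above the isotype libraries with and without it, beside 5.88% and 8.77% of all genes. Summed over the list, levels were 2619, 1258 and 2107 CPM under anti-CD8 and 950, 283 and 1223 CPM under isotype. Anti-CD8 2 was the lowest of its group and isotype 2 the lowest of all. In WGD+ tumours under anti-PD-L1 the sums were 1756, 2039 and 1849 CPM, so higher sums than under isotype were not particular to anti-CD8.

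Arg1, arginase of alternatively activated macrophages, on mm10 at chr10:24915221-24927484, was at 6.11, 6.01 and 5.89 under anti-CD8 and at 3.84, 2.95 and 5.01 under isotype. In WGD+ tumours under anti-PD-L1 it was higher still, at 6.71, 7.81 and 6.88. The anti-CD8 libraries lay close together and wholly above the isotype libraries, with a change of 2.07 and a standard error of 0.60, or 1.57 and 0.62 without isotype 2 (limma adjusted p = 0.660 and 1.00). Trem2, a lipid receptor of tumour macrophages, was at 5.48, 4.49 and 5.06 under anti-CD8 and at 3.62, 2.40 and 4.11 under isotype. Mrc1, the mannose receptor CD206, was at 7.20, 6.32 and 7.72 under anti-CD8 and at 5.58, 4.29 and 5.78 under isotype. In these genes too the groups did not overlap. Adgre1, which encodes the macrophage antigen F4/80, had a change of 0.59, or 0.50 without isotype 2, with overlapping groups.

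Chemokines made by myeloid cells were mixed. Of the 17 members 15 were tested and none called, with a median change of 0.62, or 0.31 without isotype 2. Ccl6, a myeloid chemokine of rodents, was at 7.26, 6.37 and 7.29 under anti-CD8 and at 4.79, 5.35 and 5.70 under isotype, with no overlap and a change of 1.69, or 1.73 without isotype 2. Ccl7, which attracts monocytes, was at 5.18, 3.83 and 4.94 under anti-CD8 and at 2.97, 2.48 and 3.88 under isotype. Anti-CD8 2 lay just under isotype 3, so the Ccl7 groups overlapped, with a change of 1.54, or 1.23 without isotype 2. Ccl4, a chemokine of activated macrophages and lymphocytes, ran the other way against isotype 1 and 3, at 1.22, 1.07 and 1.17 under anti-CD8 and 2.17, 0.62 and 1.97 under isotype.

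Monocyte and neutrophil lists had smaller medians, of 0.29 and 0.25, or 0.07 and 0.03 without isotype 2, and no member was called. Mmp9, a gelatinase listed with neutrophils but also made by macrophages, was at 5.91, 4.93 and 4.76 under anti-CD8 and at 4.29, 2.24 and 4.27 under isotype. Its groups did not overlap, and the change was 1.60, or 0.92 without isotype 2. Vcan, a matrix proteoglycan that monocytes express, was at 4.07, 2.27 and 4.30 under anti-CD8 and at 2.20, 2.07 and 3.01 under isotype, with overlap.

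Stromal genes were higher in 2 of the 3 anti-CD8 libraries. Of the 18 fibroblast and matrix genes 17 had a change above 0, and none was called. An unadjusted p under 0.05 was found for 8 beside 3.5% of all genes, or for 3 beside 0.816% without isotype 2. The median change was 1.04, or 0.63 without isotype 2. The list sums were 3509, 1703 and 3936 CPM under anti-CD8 and 1555, 1008 and 1985 CPM under isotype, so anti-CD8 2 lay between isotype 1 and 3. Col5a1, a chain of fibril-regulating collagen V, was at 6.37, 5.40 and 6.67 under anti-CD8 and at 5.01, 3.96 and 5.21 under isotype, with a change of 1.42, or 1.04 without isotype 2. Col6a3, a chain of beaded-filament collagen VI, was at 6.78, 6.15 and 7.27 under anti-CD8 and at 5.80, 4.57 and 6.07 under isotype. With Sparc, a matricellular protein, these were the 3 of 18 genes whose groups did not overlap, beside 5.88% of all genes.

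Skeletal muscle genes varied between libraries of both groups. The 14 members summed to 2855, 45.7 and 1224 CPM under anti-CD8 and to 184, 103 and 2622 CPM under isotype, and none of the 14 was at 0 in any of the 6 libraries. Tnnt3, fast muscle troponin T, was at 8.42, 3.40 and 7.20 under anti-CD8 and at 4.48, 3.28 and 8.27 under isotype. The libraries with high muscle genes, anti-CD8 1 and 3 and isotype 3, were also the 3 with the highest sums of fibroblast and matrix genes. The part of surrounding muscle and connective tissue in the stromal result was not tested.

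Endothelial genes had smaller and more even changes. All 12 were tested and had a change above 0, or 11 of 12 without isotype 2, with a median of 0.64, or 0.29 without it. The anti-CD8 libraries lay wholly above the isotype libraries for 7 of 12 with and without it, beside 5.88% and 8.77% of all genes, and none was called. Pecam1, the adhesion molecule CD31, was at 5.60, 5.12 and 5.57 under anti-CD8 and at 5.05, 3.83 and 5.02 under isotype. Esam, a tight junction molecule of vessels, was at 4.37, 3.94 and 4.26 under anti-CD8 and at 3.68, 2.71 and 3.80 under isotype. The gaps are small, since anti-CD8 2 lay only just above isotype 1 for Pecam1 and just above isotype 3 for Esam.

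Single genes were named by a rule: no overlap between the 6 libraries, a mean of at least 3 in the higher group and the smallest p, 10 each way, since no gene was called. The 10 higher genes were Fcna, Ccn2, Cspg4, Mcam, Emilin1, Plaur, Mmp14, Plau, Klf10 and Relb. Fcna, ficolin A, a lectin of the complement system made by macrophages in mice, lies on mm10 at chr2:25624666-25628030. It was at 4.69, 4.26 and 4.51 under anti-CD8 and at 2.54, 0.89 and 2.62 under isotype, and the arithmetic means were 21.6 and 3.60 CPM. In WGD+ tumours under anti-PD-L1 it was at 4.42, 4.37 and 3.89. The change was 2.47 with a 95% interval of 1.35 to 3.60, or 1.91 without isotype 2 (limma adjusted p = 0.660 and 1.00).

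Plau, urokinase, a protease of matrix turnover, was at 7.03, 6.37 and 6.60 under anti-CD8 and at 5.76, 4.52 and 6.17 under isotype. Plaur, its receptor, was at 6.98, 6.93 and 6.87 under anti-CD8 and at 6.57, 5.64 and 6.35 under isotype. Mmp14, a membrane-bound collagenase, was at 9.38, 8.59 and 9.09 under anti-CD8 and at 8.37, 7.26 and 8.47 under isotype. Isotype 2 was the lowest of the 6 libraries in all 3 genes, and without it the changes were 0.70, 0.47 and 0.60, in place of 1.19, 0.74 and 0.98. In WGD+ tumours under anti-PD-L1, Plau was at 7.03, 7.19 and 6.80 and Plaur at 7.03, 6.97 and 6.47. Mmp14 was at 8.53, 8.80 and 8.07 there.

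Ccn2, connective tissue growth factor, was at 6.51, 6.30 and 6.51 under anti-CD8 and at 5.58, 4.78 and 5.67 under isotype, a change of 1.10, or 0.82 without isotype 2. Cspg4, the pericyte proteoglycan NG2, was at 4.31, 3.72 and 4.53 under anti-CD8 and at 3.06, 1.49 and 3.48 under isotype. Klf10, a factor induced by transforming growth factor beta, was at 5.32, 5.57 and 5.48 under anti-CD8 and at 4.73, 4.84 and 4.96 under isotype. Among these 3 genes Klf10 had the same change, 0.61, with and without isotype 2. Mcam, Emilin1 and Relb had changes of 0.81, 1.34 and 0.59, or 0.58, 1.04 and 0.37 without isotype 2.

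**Figure D4:**
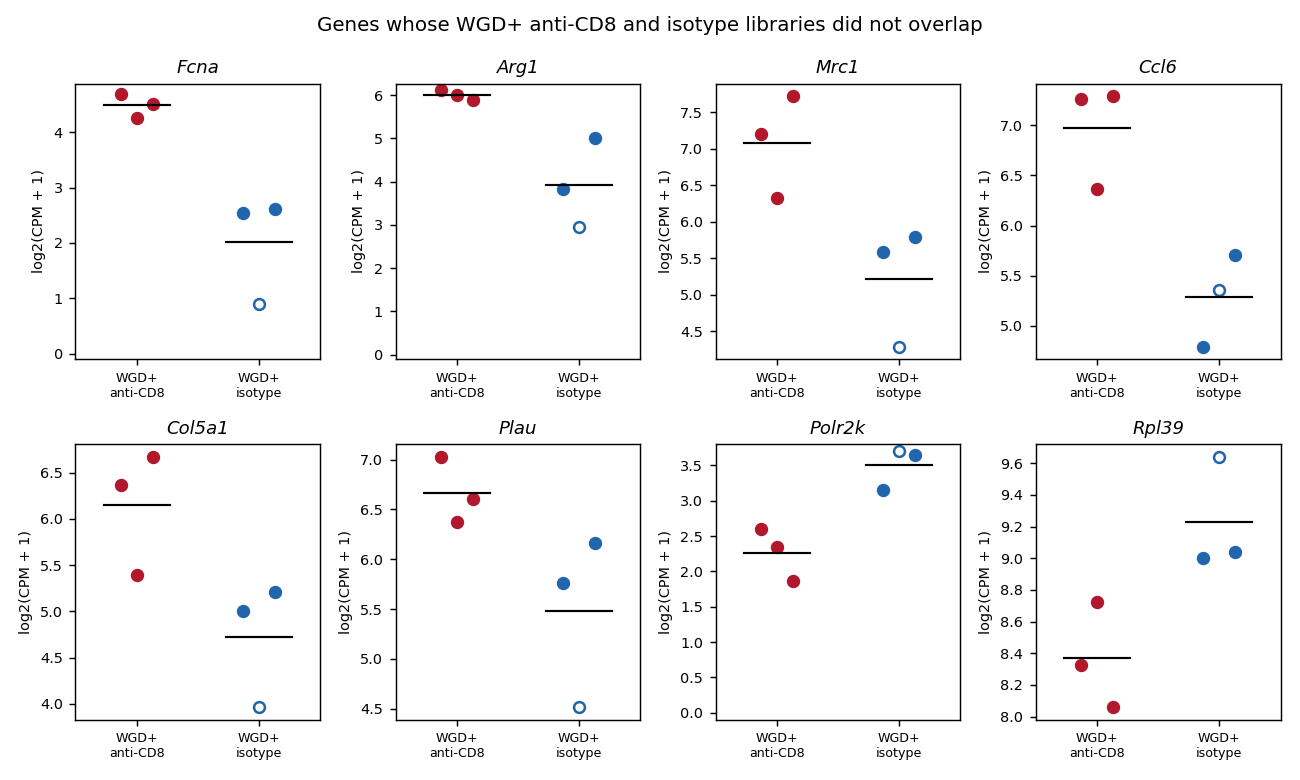
Levels, as log2(CPM + 1), of 8 genes chosen because their groups do not overlap, in WGD+ tumours under anti-CD8 and isotype antibody. Each circle is a library, bars are group means and the open circle is isotype 2. Fcna, Arg1, Mrc1, Ccl6, Col5a1 and Plau are higher under anti-CD8, and Polr2k and Rpl39 are lower; each axis has its own range.

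The 10 lower genes were Polr2k, Npr3, Rpl39, Fam50a, Rpl35a, Fdft1, Slirp, Mrps36, Cox7b and Lss. Polr2k, a small subunit shared by the nuclear RNA polymerases, on mm10 at chr15:36174010-36177010, was at 2.60, 2.35 and 1.86 under anti-CD8 and at 3.15, 3.71 and 3.65 under isotype. It had the smallest p of all named genes, 0.000109, with a change of -1.24, or -1.14 without isotype 2 (limma adjusted p = 0.660 and 1.00). The counts behind it were 57, 48 and 38 reads under anti-CD8 and 110, 113 and 115 under isotype. Npr3, the clearance receptor of natriuretic peptides, was at 4.68, 4.23 and 4.45 under anti-CD8 and at 5.83, 5.70 and 4.82 under isotype. Fam50a, a nuclear protein, was at 5.43, 5.55 and 5.67 under anti-CD8 and at 6.13, 6.17 and 6.06 under isotype.

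Both sterol genes among the 10 were lower by less without isotype 2. Fdft1, squalene synthase, was at 5.83, 5.92 and 5.93 under anti-CD8 and at 6.33, 7.02 and 6.36 under isotype. Lss, lanosterol synthase, was at 4.32, 5.07 and 4.56 under anti-CD8 and at 5.30, 6.56 and 5.29 under isotype. Isotype 2 had the highest level of either gene, and the changes of -0.67 and -1.06 became -0.45 and -0.64 without it.

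Rpl39, a small protein of the large cytosolic subunit, had 3615, 4955 and 3840 reads under anti-CD8 and 7133, 7470 and 5215 reads under isotype. Its level was 8.37 ± 0.33 under anti-CD8 and 9.23 ± 0.36 under isotype (SD, n = 3 each), and the levels of the groups did not overlap. Its change was -0.86, or -0.65 without isotype 2. Rpl35a, also of the large subunit, had a change of -0.60, or -0.50 without isotype 2. Cox7b, a subunit of cytochrome c oxidase, had one of -0.85, or -0.54 without it. Slirp, a mitochondrial RNA-binding protein, and Mrps36 had changes of -0.61 and -0.55, or -0.50 and -0.52 without it. Ribosomal protein genes have many processed copies in the genome, and how reads shared with them were counted is not given in the sources used here.

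The list of 13 cytosolic ribosome genes, which holds neither Rpl39 nor Rpl35a, had all changes below 0. Its median was -0.26, or -0.29 without isotype 2, 5 members had an unadjusted p under 0.05 beside 4.02% of all genes, or 3 beside 1.41% without isotype 2, and none was called. The groups did not overlap for 6 of 13 beside 5.25% of all genes, or for 8 of 13 beside 9.59% without isotype 2. Rpl5 was at 9.60, 10.18 and 9.70 under anti-CD8 and at 10.21, 10.70 and 10.22 under isotype. Rpl3 was at 9.78, 10.14 and 9.71 under anti-CD8 and at 10.23, 10.41 and 10.36 under isotype. Anti-CD8 2 was the nearest to the isotype libraries in both. Quantile normalization gave a list median of -0.10. The 13 respiratory chain genes had a median of -0.09, or -0.05 without isotype 2. Cox6c and Atp5b, both at -0.33, or -0.31 and -0.18 without it, were the 2 of 13 whose groups did not overlap on the lower side, beside 5.25% of all genes.

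Hypoxia and glycolysis genes were lower in 2 of the 3 anti-CD8 libraries. Of 15 members 14 were tested, all 14 had a change below 0 with a median of -0.56, or -0.50 without isotype 2, and none was called. Car9, a carbonic anhydrase induced by hypoxia, was at 4.29, 5.55 and 4.09 under anti-CD8 and at 5.78, 5.44 and 5.74 under isotype. Pgk1, a glycolytic kinase, was at 9.69, 10.54 and 9.69 under anti-CD8 and at 10.33, 10.64 and 10.57 under isotype. For both genes anti-CD8 2 lay within the isotype range and anti-CD8 1 and 3, the 2 libraries of that group with high muscle genes, lay below it. Isotype 3, which also had high muscle genes, was not low, at 5.74 for Car9 and 10.57 for Pgk1. A link to muscle content was not tested. For 0 of 14 genes did the groups part with all libraries, beside 5.25% of all genes on the lower side. An unadjusted p under 0.05 was found for 5 lower genes beside 4.02% of all genes, or for 2 beside 1.41% without isotype 2. Hspa1b, an inducible chaperone with a near-identical copy, was at 5.55, 6.73 and 6.03 under anti-CD8 and at 6.62, 7.15 and 7.18 under isotype, where anti-CD8 2 again reached into the isotype range.

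Cell cycle and p53 target genes were nearly level between the WGD+ groups. The 18 genes of G2/M had a median change of -0.14, or -0.01 without isotype 2, and the 15 of S phase -0.02, or 0.09. Aurkb, a mitotic kinase, was at 6.10, 6.30 and 5.96 under anti-CD8 and at 6.36, 7.18 and 6.12 under isotype. Birc5, which encodes survivin, was at 7.99, 7.55 and 7.68 under anti-CD8 and at 7.52, 7.35 and 7.57 under isotype. Both genes overlapped between groups, and isotype 2 held the extreme value of each. The 12 p53 targets had a median of 0.03, or -0.10 without isotype 2, and none was called.

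**Figure D5:**
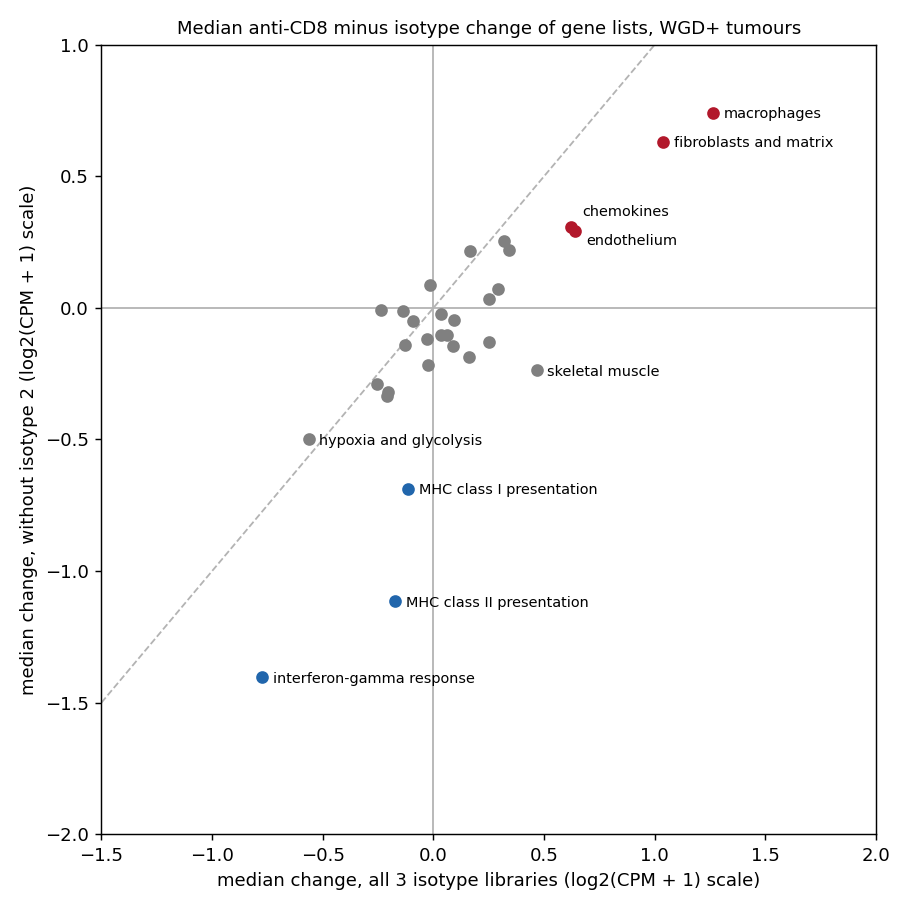
Median change of each gene list with at least 5 tested members, anti-CD8 minus isotype in WGD+ tumours on the log2(CPM + 1) scale, with all 3 isotype libraries (horizontal) and without isotype 2 (vertical). Each point is a list, the dashed line marks equal values, red marks macrophages, chemokines, stroma and endothelium and blue the interferon-gamma and MHC lists. The 3 blue points lie far below the dashed line, and macrophages have the highest median on both axes, 1.26 and 0.74.

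The rule was also applied to the 5 libraries without isotype 2, after the data were seen, and named further genes. Arrdc4, an alpha-arrestin, was at 5.65, 5.85 and 5.68 under anti-CD8 and at 5.03, 5.43 and 4.89 under isotype, with the smallest p of the higher genes in that fit, 0.00183, and a change of 0.77. Herpud1, which acts in endoplasmic reticulum stress, was at 5.47, 5.54 and 5.48 under anti-CD8 and at 4.91, 5.19 and 4.99 under isotype. On the lower side Psd2 was at 1.10, 1.86 and 1.94 under anti-CD8 and at 3.67, 2.28 and 2.55 under isotype. For these 3 genes isotype 2 also lay on the isotype side of every anti-CD8 library. Hbegf, a ligand of the EGF receptor, was at 6.84, 6.57 and 6.48 under anti-CD8 and at 7.28, 6.58 and 7.08 under isotype, so isotype 2 fell among the anti-CD8 libraries there.

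The difference between the anti-CD8 effect in WGD+ tumours and that in WGD- tumours was tested as an interaction. Limma called 0 of 13840 genes (0%), with all libraries and without isotype 2, and 2304 genes (16.6%) had an unadjusted p under 0.05, or 1322 (9.55%) without isotype 2. In WGD- tumours on their own limma called 1 gene (0.00723%), Apoc1, an apolipoprotein that macrophages express, which fell to 0.95 and 0.80 under anti-CD8, against 2.75, 3.56 and 2.79 under isotype (adjusted p = 0.0249). In WGD+ tumours Apoc1 was at 0.24, 0.12 and 0.10 under anti-CD8 and at 0.28, 0.71 and 0.14 under isotype, mostly at or under 3 reads, and the difference of 1.93 was not called (limma adjusted p = 0.247).

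For CD8 and T cell receptor complex genes the median change was -0.20 in WGD+ and -1.53 in WGD- tumours, and the median difference was 1.41, or 1.15 without isotype 2. Cd8a had a difference of 1.84 with a 95% interval of -0.64 to 4.31 (limma adjusted p = 0.413). Interferon-gamma response genes had medians of -0.77 in WGD+ and -2.25 in WGD- tumours, with a median difference of 1.71, or 0.96 without isotype 2, and 2 of 19 members had an unadjusted p under 0.05 for the difference beside 6.82% of all genes on that side, or 0 of 19 beside 3.51% without isotype 2. Cxcl9 in WGD- tumours was at 2.33 and 1.85 under anti-CD8 and at 5.28, 6.88 and 6.29 under isotype, and its difference of 2.69, or 1.32 without isotype 2, was not called. In the anti-CD8 groups of both forms Cxcl9 lay between 1.85 and 3.71.

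Macrophage genes had medians of opposite sign, 1.26 in WGD+ and -0.81 in WGD- tumours. The median difference was 2.07, or 1.55 without isotype 2, and 6 of 15 members had an unadjusted p under 0.05 for the difference, beside 6.82% of all genes on that side, or 4 of 15 beside 3.51% without isotype 2. Arg1 in WGD- tumours was at 5.33 and 4.97 under anti-CD8 and at 6.20, 5.90 and 7.79 under isotype, and its difference was 3.55 with a 95% interval of 1.62 to 5.49 (limma adjusted p = 0.247), or 3.06 without isotype 2. Inflammatory cytokine genes had 8 of 14 members at a limma unadjusted p under 0.05 for a higher difference, beside 6.82% of all genes. Without isotype 2 they again had 8 of 14, beside 3.51%. The p53 targets had medians of 0.03 in WGD+ and 0.53 in WGD- tumours. Their median difference was -0.58, or -0.61 without isotype 2. That of cytosolic ribosome genes was -0.49, or -0.44 without it.

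The 4 genes with the smallest p for the difference that met the level limit were Esyt3, Csf3, Nfatc1 and Nudt4, all at a limma adjusted p of 0.247. Esyt3, an extended synaptotagmin at membrane contact sites, was at 4.16, 4.51 and 4.52 under anti-CD8 and 5.10, 4.97 and 4.73 under isotype in WGD+ tumours, and at 5.33 and 5.24 under anti-CD8 and 4.07, 4.22 and 4.21 under isotype in WGD- tumours. The 2 forms thus ran in opposite directions with no overlap in either, and the difference was -1.65, or -1.63 without isotype 2. Csf3, granulocyte colony-stimulating factor, was at 5.75, 4.52 and 5.42 under anti-CD8 and 4.87, 4.52 and 4.76 under isotype in WGD+ tumours, and at 4.31 and 4.24 under anti-CD8 and 5.94, 5.66 and 6.49 under isotype in WGD- tumours. Its groups overlapped in WGD+ tumours only, and the difference was 2.27, or 2.17 without isotype 2.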

How the data were processed

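Bulk mRNA of mouse tumours was measured, and per the labels' protocols RNA came from a column kit and stranded libraries from 500 ng of it. Per the submitters' processing notes the reads were aligned with STAR 2.5.1b to mm10 and edgeR was used; the counting tool and annotation are not stated there. The deposited values are log2(CPM + 1), with a pseudocount of 1, with TMM factors (trimmed mean of M values) that the authors applied to each experiment on its own, as the deposited table is named. Read in this way, 100% of the values tested gave whole reads within 0.1 of a read, which gave the depth, 9.57 to 15.5 M assigned reads over the 17 antibody libraries.

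The antibody table was fitted with limma (version 3.58.1, under R 4.3.3). The model had 6 group means over 17 libraries, a mean-variance trend and robust empirical Bayes, and covered 13840 genes above 1 CPM in at least 3 libraries. P-values are two-sided and were adjusted by Benjamini-Hochberg over these genes, with calls under 0.05. The voom fits used the recovered reads, since the deposited unit is a log value. The fit was tested on simulated data. Standard errors and 95% intervals come from the fit, and read floors of 3 counts cover counting error only.

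Groups came from sample titles. Deposited symbols were matched to GENCODE M21 (98.5% of 20185), and 25 symbols that a spreadsheet had turned into dates were left out. The members, the 38 gene lists and the naming rule were chosen with earlier results of these data known. The rule names Cd8a, Cd8b1 and Cd4; the 10 genes each way with the smallest p among those with no overlap of the groups and a mean of at least 3 in the higher group; 2 members of each list with the smallest p; and the 4 genes with the smallest p for the difference. Krt8, Epcam, Adgre1, Sparc, Gzmb, Ifng, Cxcl9, H2-K1, Cd74, Apoc1, Slc7a11 and Lpar3 were named after their values were seen. Lists are described by counts and medians, without a test.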

Additional observations from a re-analysis of the deposited data

How the results depend on the processing

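The count of genes called between anti-CD8 and isotype in WGD+ tumours was 0 under no filter, both other pseudocounts, quantile normalization, a fit of the compared libraries alone, the replicate block, voom and each leave-one-out fit, and so was the count for the difference from WGD- tumours. Only array weights moved these, to 1976 and 2273 of 13840 genes. Of the 92 named gene results 66 passed the threshold there and under no other alternative. Most of these genes were named for a small p in the same data, so that share is no result about them. The cause was not tested beyond the weights given above. Chosen after the data were seen, the fit of the compared libraries without isotype 2 called 1 gene, and voom without isotype 2 called 0. Leaving out 1 library at a time moved the genes at an unadjusted p under 0.05 from 1041 to between 308 (without isotype 2) and 1858 (without isotype 3); it was 456 without anti-CD8 1, 495 without anti-CD8 3, 1664 without anti-CD8 2 and 1339 without isotype 1. For the difference the range was 1120 to 3055. Anti-CD8 1, 2 and 3 had correlations of deviations of -0.0014, 0.48 and 0.23 with the isotype library of the same number. Isotype 2 and 3 were the best match of anti-CD8 2 and 3, while anti-CD8 1 matched isotype 3 best, at 0.51. These values do not decide whether the numbers mark pairs. The replicate block gave 0 calls and 966 genes at an unadjusted p under 0.05. No library scored on the side of the other genotype, so leaving out such libraries removed none and gave no separate value.

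Of the 92 named gene results 12 turned direction. Leaving out 1 library at a time, the change ran from -0.39 to 0.014 for Cd8b1, -1.06 to 0.024 for Prf1, -0.81 to 0.14 for Gzmb, -0.63 to 0.12 for Nkg7, -1.60 to 0.31 for Nlrc5, -1.58 to 0.039 for Psmb9, -0.34 to 0.79 for Tapbp, -0.60 to 0.79 for H2-K1, -1.08 to 0.86 for Cd74, -1.08 to 0.13 for Zbp1 and -0.046 to 2.47 for Tnnt3. With array weights Cd4 was at -0.0069, Tapbp at -0.37, H2-K1 at -0.84 and Cd74 at -1.38. The median of the interferon-gamma list ran from -1.40 without isotype 2 to -0.25, and that of the macrophage list from 0.74 without isotype 2 to 1.53.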

Other observations

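Some other lists of host cells had few members above the limit for testing. Of 13 B and plasma cell genes 4 were tested, with a median change of 0.35, or 0.27 without isotype 2, and of 6 lymph node stroma genes 1 was tested. Of 8 type 1 conventional dendritic cell genes 7 were tested, with a median of 0.06, or -0.10 without isotype 2. None of the genes in these lists was called.

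Isotype 2 also stood apart in milk and fat genes. Csn3, kappa casein, was at 0.34, 1.56 and 0.57 under anti-CD8 and at 1.44, 5.21 and 0.68 under isotype, and Cfd, the adipocyte factor adipsin, at 1.87, 1.99 and 1.33 under anti-CD8 and 2.28, 4.43 and 2.01 under isotype. In both genes isotype 2 was the highest of the 6 libraries.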
